A study of Arabidopsis thaliana with 60 samples.

Results

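The blade of leaf 7 of Arabidopsis thaliana Col-0, the standard laboratory accession, was profiled in 2 pieces, a distal one toward the tip and a proximal one next to the petiole. Each piece gave 3 arrays, chosen by their labels, so 6 of the 60 arrays of the series carry the comparison, and another 3 hold the petiole of leaf 7. The plants grew on soil in continuous light at 23 °C and 65% relative humidity, as did those of every other group whose values are given here. These were whole rosette leaves 2, 4, 6, 8, 10 and 12, taken when leaf 12 was about 1 cm long, leaf 4 taken at 1 cm, and senescing leaves, each with 3 arrays. The statistical fit and the choice of tested probe sets also drew on the remaining groups of the 60 arrays. They hold cotyledons, leaves 1 and 2, cauline leaves, leaves of gl1T plants, short-day rosettes and leaves from sucrose medium. The short-day and sucrose-medium plants grew at a different temperature. The labels record soil on the sampled tissue of the 1 cm leaves. The first array grouped with rosette leaf 6 shares the title code of that set but has a tissue label of leaf 4, and was kept with leaf 6. The sources used here give neither plant age nor leaf length for leaf 7, nor whether the whole leaves included their petioles.

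A leaf of this plant matures from its tip toward its base. Cells near the tip leave the division cycle and reach their final size first, cells near the base continue for longer, and yellowing later starts at the tip as well. Within a rosette the lowest numbered leaf is the oldest, so the leaves of one plant also form an age series.

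Values are MAS5 signals on a linear scale, with the trimmed mean of every array near 100. Differences are distal minus proximal on the log2 scale after adding a pseudocount of 6.11, given with the standard error (SE) from the limma fit, and they understate the change of dim genes. A probe set passed where the p, adjusted by Benjamini-Hochberg over all tested, was below 0.05, and a 2-fold difference also needed an absolute log2 value of at least 1. The SE and p-values rest on the spread among arrays of the same group, pooled over all 20 groups, and not on the blade arrays alone. Nothing in the labels ties the 3 arrays of a group to different plants or pools. Part or all of that spread could therefore be technical. In such bulk samples fewer cells of a type and less RNA per cell cannot be told apart. Of 15808 probe sets tested, 2626 passed (16.6%), 1356 of them higher in the distal blade (8.58%) and 1270 lower (8.03%). A fit on the 6 blade arrays alone gave 2049, with 1123 higher and 926 lower. Most differences were small, with a median absolute log2 difference of 0.15 and a 95th percentile of 0.55. A 2-fold difference was reached by 100 probe sets (0.633%), of which 64 were higher (0.405%) and 36 lower (0.228%) in the distal blade. Arrays of one blade piece correlated with r between 0.985 and 0.989, and arrays of opposite pieces with r between 0.977 and 0.981. The petiole stood farther away, at r of 0.950 to 0.953 with the proximal and 0.925 to 0.928 with the distal blade.

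The 2 blade pieces of the same leaf lay at different places along the rosette's age series. Among the group means of other leaves, that of the distal blade correlated best with rosette leaf 6 (r = 0.985), closely followed by leaf 4 (r = 0.983). That of the proximal blade correlated best with rosette leaf 8 (r = 0.990). The distal blade was closer to the proximal blade of the same leaf (r = 0.988) than to any of these whole leaves. A leaf position was estimated for each array from the 3644 probe sets whose signal changed at least 2-fold along leaves 2 to 12, on a scale set by those leaves. The distal arrays were placed at 5.74, 5.73 and 5.85, and the proximal arrays at 7.41, 7.49 and 7.46. All 3 distal arrays were thus placed below leaf 6 and all 3 proximal arrays between leaves 7 and 8, with no overlap. The group means were 5.77 ± 0.063 and 7.45 ± 0.043 (SD, n = 3 arrays). With the 2180 of these probe sets that did not themselves pass between the blade pieces, the means were 6.19 and 7.10. This estimate was devised after the values had been seen and carries no test.

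**Figure D1:**
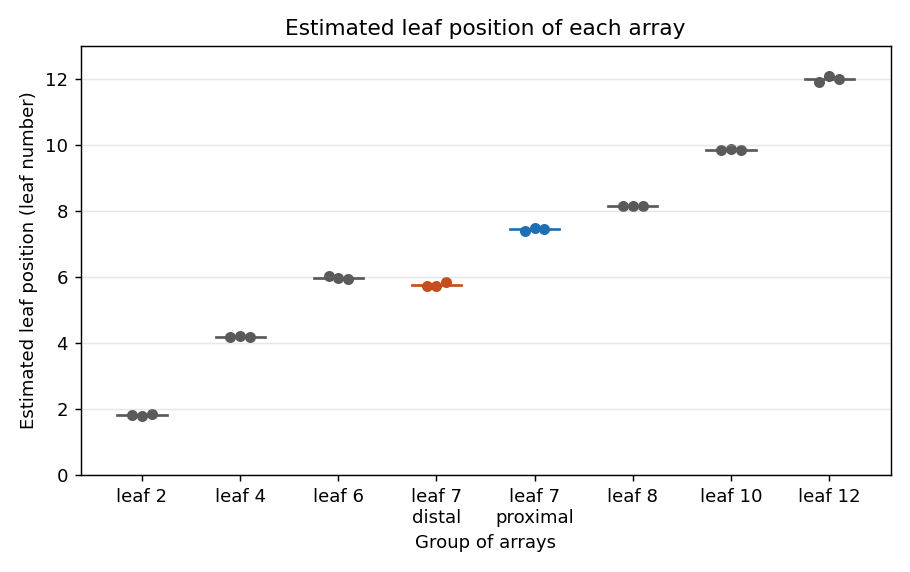
Estimated leaf position (vertical axis, in leaf numbers) of each array of rosette leaves 2 to 12 and of the distal and proximal blade of leaf 7, with a line at each group mean. The distal arrays of leaf 7 lie between 5.73 and 5.85 and the proximal arrays between 7.41 and 7.49.

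Most single differences between the blade pieces ran the way leaf age runs on arrays of other leaves. Of the 1356 probe sets higher in the distal blade, 1176 (86.7%) were also higher in older leaves by the trend over leaves 2 to 12, where 35.9% of all tested probe sets were, and 64 went the opposite way. Of the 1270 higher in the proximal blade, 1104 (86.9%) were higher toward the younger leaves, against 36.8% of all tested, and 81 went the opposite way. As a share of the age lists these overlaps were 20.7% and 19.0%. The comparison of leaf 4 between its later and its 1 cm stage gave 1105 (81.5% of the distal list, against 32.4% of all tested) and 1026 (80.8% of the proximal list, against 36.4%). Of the distal list 869 probe sets (64.1%) were higher in senescing leaves than in the mean of leaves 2 to 12, where 44.9% of all tested were, and 373 were lower. Of the proximal list 1049 (82.6%) were lower in senescing leaves, where 38.7% of all tested were, and 146 were higher. With leaf 2 alone in place of that mean, the distal list split more evenly, into 617 higher and 510 lower in senescing leaves. The proximal list then had 842 lower and 195 higher. The 3 age comparisons share arrays with each other but none with leaf 7. Across the 15808 probe sets, Pearson's r with the difference between the blade pieces was -0.59 for the fitted change from leaf 2 to leaf 12, 0.52 for leaf 4 and 0.35 for senescence, a description over probe sets that are not independent replicates.

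**Figure D2:**
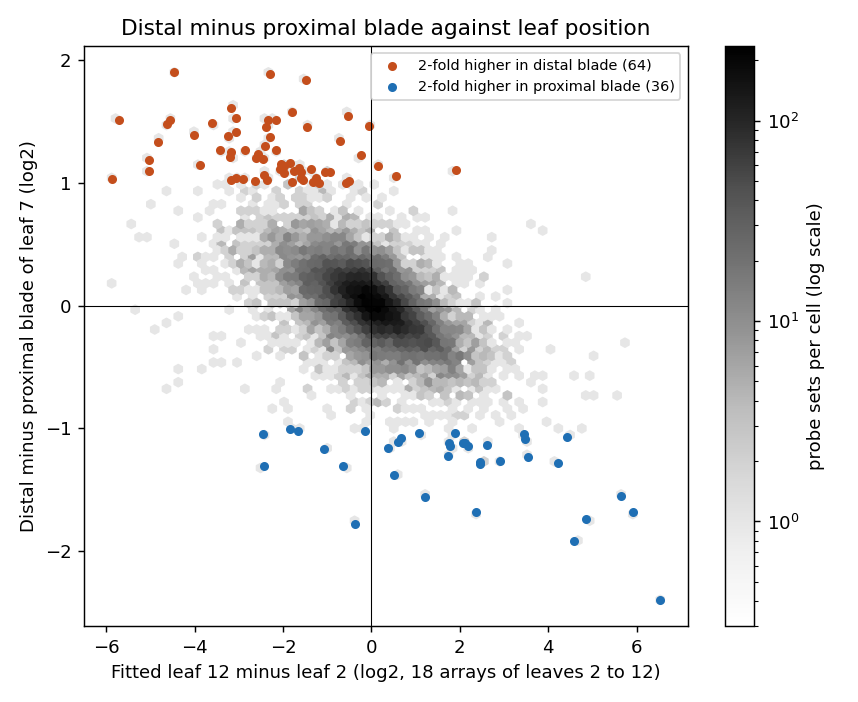
Each probe set's fitted log2 difference of leaf 12 minus leaf 2 (horizontal axis) against its log2 difference of distal minus proximal blade (vertical axis), as a density in grey, with the 64 and 36 probe sets of 2-fold difference as coloured points. Of the 64, 58 were higher in older leaves by the trend and 2 in younger leaves. Of the 36, 27 were higher in younger leaves and 7 in older leaves.

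The genes with the largest increase toward the tip were mostly known only by a locus code. AT1G64360 had signals of 111, 123 and 117 in the distal blade against 29.8, 27.0 and 23.7 in the proximal blade (1.90 ± 0.24, adjusted p = 2.7e-08). Every distal array lay far above every proximal one, and the petiole, with a mean of 7.08, was lower still. CHI (AT2G43570), a putative chitinase, had 180, 189 and 165 against 63.7, 54.4 and 54.6 (1.53 ± 0.14). Its whole-leaf means fell from 293 in leaf 2 to 29.5 in leaf 12, and were 158 in leaf 6 and 86.6 in leaf 8. The distal blade of leaf 7 was therefore above whole leaf 6 and the proximal blade below whole leaf 8 in this gene. AT4G14020 had 238, 293 and 244 against 112, 114 and 103 (1.19 ± 0.16), with the distal mean above whole leaf 6 (147) and the proximal mean between whole leaves 6 and 8 (83.6). MSRB9 (AT4G21850), a methionine sulfoxide reductase that repairs oxidized methionine, had 89.0, 108 and 116 against 50.4, 52.8 and 35.4 (1.08 ± 0.14). The 12 largest increases by the rule for named genes ranged from 0.97 in AT3G15650 to 1.90. That rule took only genes whose blade arrays did not overlap, which 17.1% of all tested probe sets met with the distal blade higher, so the lack of overlap is no result. AT1G62510 alone of these 12 was lower in the later than in the 1 cm leaf 4 (-0.58 ± 0.16), although it was higher in the older of leaves 2 to 12. In senescing leaves AT1G62510 was down to 0.88, the lowest level among the groups given here.

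Toward the base, the genes with the largest increase included a tubulin, a chloroplast chaperonin and several known only by a locus code. AT1G31690 had 60.8, 63.5 and 62.2 in the distal blade against 228, 214 and 223 in the proximal blade (-1.74 ± 0.11, adjusted p = 4.6e-18). The proximal arrays were close to the petiole mean of 241, and the distal ones lay between whole leaf 4 (39.5) and whole leaf 6 (104.7). AT4G29020 had 104, 90.6 and 92.3 against 317, 322 and 320 (-1.68 ± 0.10), with 671 in the petiole. This gene spanned a wide range over the age series, from 24.9 in leaf 2 to 1576 in leaf 12 and 2387 in leaf 4 at 1 cm. AT1G31710 had 22.6, 16.8 and 30.1 against 89.4, 74.9 and 72.6 (-1.56 ± 0.16), with 519 in the petiole. AT1G31710 and AT5G22580, another of the 12 largest decreases, were higher in the later than in the 1 cm leaf 4 (0.86 ± 0.16 and 0.61 ± 0.12). By the trend over leaves 2 to 12 both were higher in younger leaves. TUB1 (AT1G75780), a beta-tubulin of the microtubules, had 19.4, 24.3 and 29.0 against 78.4, 54.4 and 61.8 (-1.22 ± 0.12), and 406 in the petiole. Whole leaves 6 and 8 had TUB1 means of 79.7 and 109, above the means of both blade pieces (24.3 and 64.9). CYP71B22 (AT3G26200), a cytochrome P450, had 45.1, 46.4 and 30.9 against 97.0, 88.2 and 92.8 (-1.09 ± 0.11). Cpn60beta2 (AT3G13470), a subunit of the chloroplast chaperonin that folds proteins such as Rubisco, had 271, 288 and 328 against 536, 561 and 586 (-0.91 ± 0.068). Its mean was 156 in leaf 2 and 1233 in leaf 12. Here too the rule asked that arrays did not overlap, which 13.9% of all tested probe sets met with the distal blade lower.

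**Figure D3:**
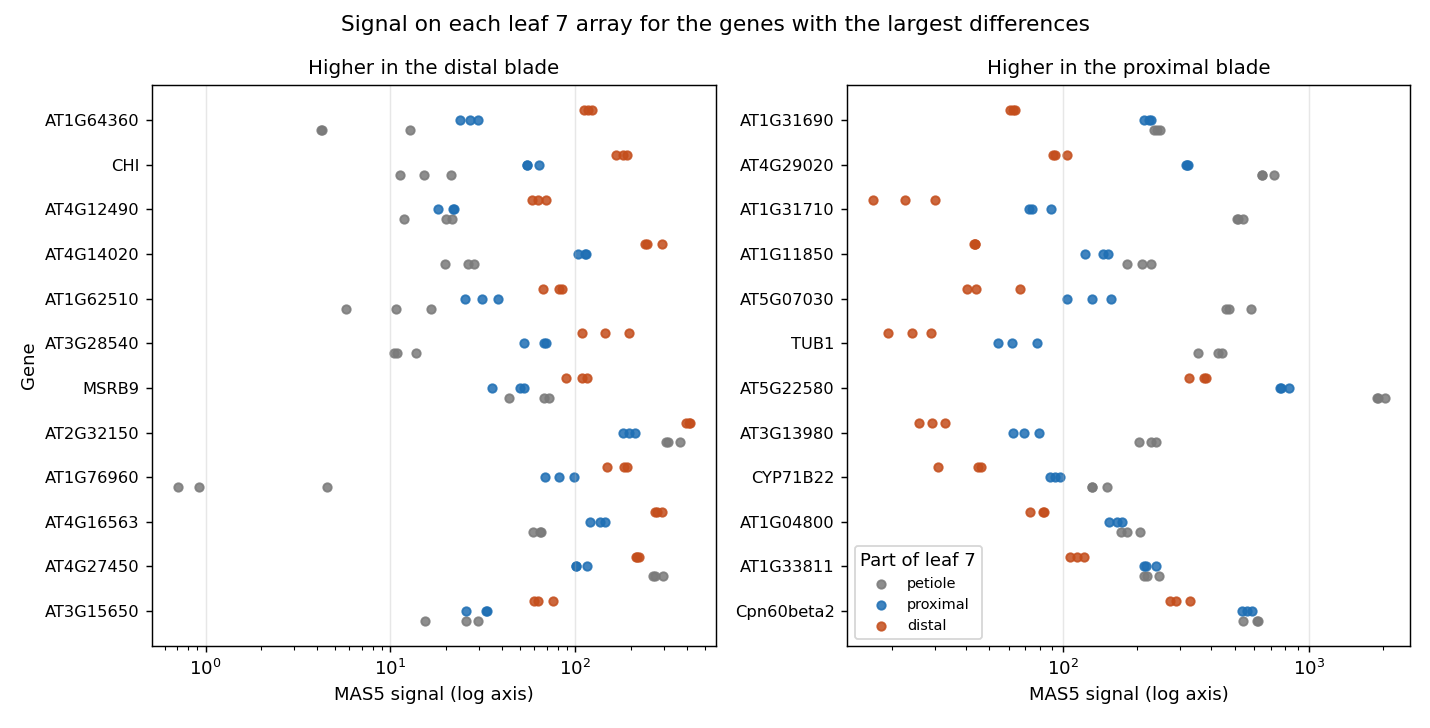
MAS5 signal (horizontal log axis) on each of the 9 leaf 7 arrays for the 12 genes with the largest increase (left) and the 12 with the largest decrease (right) from proximal to distal blade, 1 point per array. The 24 genes were chosen without overlap between distal and proximal arrays. All 12 genes on the right have a higher mean in the petiole than in either blade piece. Among them are AT1G31710, TUB1 and AT5G07030, at petiole means of 519, 406 and 503, while AT1G33811 differs little (226 against 223 in the proximal blade).

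Whole-leaf levels put these genes in 3 kinds of profile. In AT4G29020 and AT1G31690 the signal climbed toward young leaves, and the distal blade of leaf 7 fell below whole leaf 6. In CHI and AT4G14020 the signal declined toward young leaves, and the distal blade stood above whole leaf 6. BCAT4 (AT3G19710), an aminotransferase of methionine-derived glucosinolate synthesis, differed from both. It rose from 1101 in leaf 2 to 1807 in leaf 4 and then declined to 177 in leaf 12, and was lower in the distal blade, at 901, 840 and 873 against 1371, 1347 and 1427 (-0.66 ± 0.092, adjusted p = 3.2e-07). The proximal blade thus lay near whole leaf 6 (1477) and the distal blade near whole leaf 8 (920), with the petiole at 2126. Whole leaf 2 lay between the means of the blade pieces (871 and 1382).

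**Figure D4:**
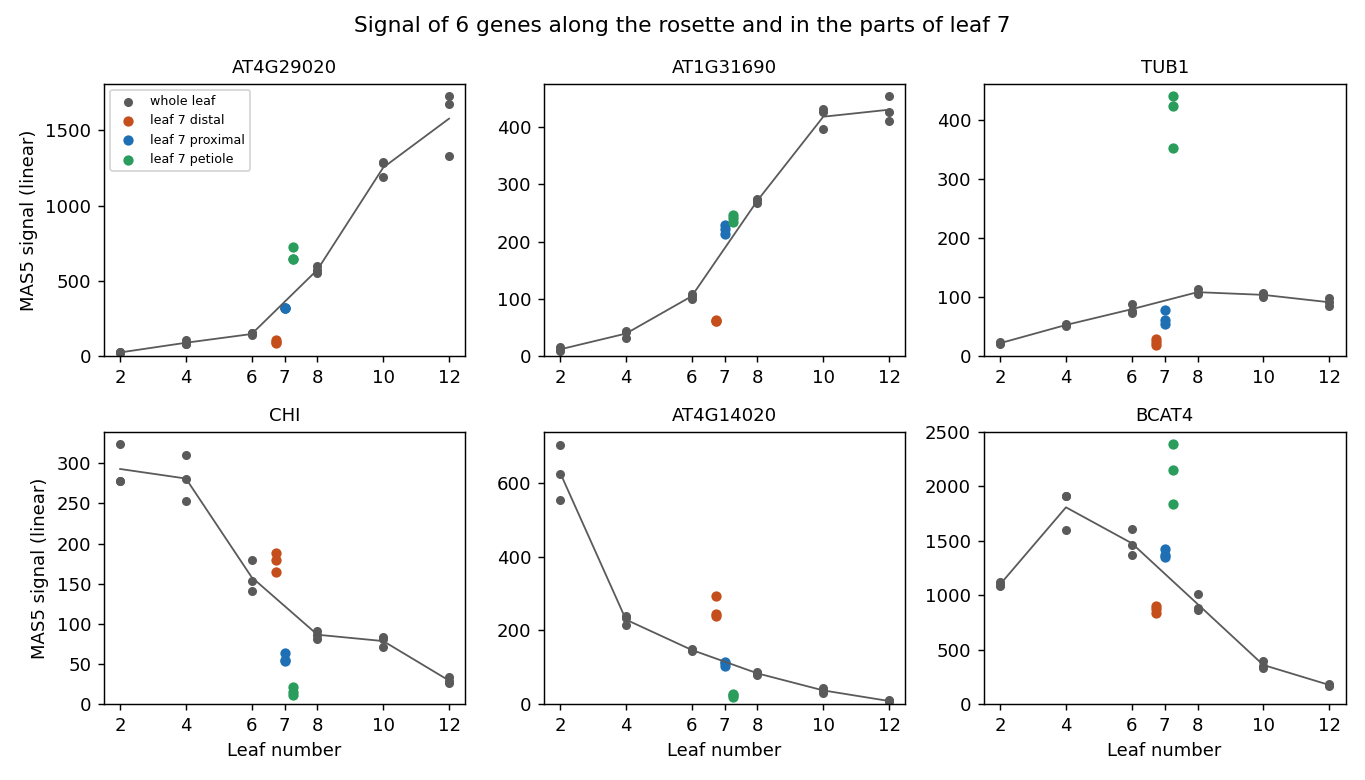
MAS5 signal (vertical linear axis) of 6 genes in whole rosette leaves by leaf number (grey points, 3 arrays each, line through the means) and in the distal blade, proximal blade and petiole of leaf 7, drawn at leaf number 7 with a small sideways offset. CHI and AT4G14020 are higher in the distal blade while declining with leaf number, and BCAT4 peaks in leaf 4, declines toward leaf 12 and is higher in the proximal blade and petiole than in the distal blade.

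A small share of the differences that passed ran against the fitted leaf age comparisons. The share was larger among those 2-fold lower in the distal blade. Of the 2626 probe sets that passed, 2040 (77.7%) went with leaf age both over leaves 2 to 12 and in leaf 4, and 88 (3.35%) went against it in both. Of these 88, 64 were higher in the proximal blade and 24 in the distal blade. Besides BCAT4 they included the defensins PDF1.2b (AT2G26020) and PDF1.2 (AT5G44420), antifungal peptides induced by jasmonate and ethylene. PDF1.2 had 122, 135 and 147 in the distal against 201, 197 and 184 in the proximal blade (-0.51 ± 0.14). PDF1.2b had 180, 216 and 222 against 321, 295 and 358 (-0.64 ± 0.20). Leaving out distal replicate 1 ended the call of PDF1.2b (adjusted p = 0.088), as did leaving out proximal replicate 3 (adjusted p = 0.080). Both defensins were lower on every distal array, although their fitted trend over leaves 2 to 12 fell (-3.89 ± 0.12 for PDF1.2 and -4.30 ± 0.17 for PDF1.2b). Their levels peaked in leaf 4, with PDF1.2 at 188 in leaf 2, 999.6 in leaf 4 and 12.2 in senescing leaves, and PDF1.2b at 267, 1067 and 19.8. The oldest leaves were thus not the highest in either gene. The PDF1.2b probe set may also bind related transcripts, as its array name marks it as shared. AT3G45160 had 187, 192 and 168 against 332, 332 and 336 (-0.85 ± 0.15) and AT5G05960 had 146, 154 and 164 against 252, 250 and 258 (-0.69 ± 0.12). These 2 genes also peaked inside the age series. AT3G45160 was at 205 in leaf 2, 414 in leaf 4 and 128 in leaf 12. AT5G05960 was at 65.9 in leaf 2, 205 in leaf 6 and 60.4 in leaf 12. In the other direction, AT3G05730 had 412, 249 and 324 in the distal against 239, 165 and 234 in the proximal blade (0.60 ± 0.20) while being higher in young leaves (3.88 ± 0.17), but this call was lost without distal replicate 1 or 3 or proximal replicate 2 (adjusted p of 0.064 to 0.20). A further 99 probe sets (3.77%) passed between the blade pieces and in neither of these age comparisons. Of the 36 probe sets 2-fold lower in the distal blade, 7 (19.4%) were higher in older leaves by the trend. In the leaf 4 comparison 9 of the 36 (25%) were higher at the later stage. Of the 64 that were 2-fold higher in the distal blade, 2 went against leaf age in each comparison.

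The gene lists below were matched by symbol to probe sets with 1 gene, of which 14.8% passed (7.89% higher and 6.91% lower in the distal blade, of 8620). The share was larger among the 1219 genes with a symbol other than a locus code and 1 probe set kept. Of these, 114 passed higher and 105 lower. The median difference over all tested probe sets was 0.019. A list is described by its counts and median, with no test of the list. Of the 2626 probe sets that passed, 2455 had distal and proximal arrays that did not overlap. A lack of overlap in a gene that passed is therefore no further result.

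Among genes of senescence and autophagy every call was toward the tip. Autophagy carries cell contents to the vacuole for breakdown, and its ATG8 proteins coat the carrier membranes. All 16 tested members had differences above 0, with a median of 0.24, and 5 passed, all higher in the distal blade. Without distal replicate 3 the calls of APG8H (adjusted p = 0.12) and ATG8G were lost and 3 remained. WRKY53 (AT4G23810), a transcription factor that promotes senescence, had 187, 171 and 174 against 132, 132 and 120 (0.45 ± 0.084). GAMMA-VPE (AT4G32940), a vacuolar processing protease, had 467, 460 and 415 against 361, 317 and 336 (0.40 ± 0.067). ATG8F (AT4G16520) had 993, 1017 and 973 against 749, 852 and 768 (0.33 ± 0.060). The arrays did not overlap in any of these 3 genes, as in most probe sets that passed. The senescence regulators SAG101 (0.22) and WRKY6 (0.26) did not pass. Of the genes tied to nitrogen reuse, PPDK (AT4G15530), a pyruvate dikinase with a role in remobilizing nitrogen from old leaves, had 341, 273 and 353 against 206, 163 and 185 (0.78 ± 0.10), and passed.

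Genes of abscisic acid and dehydration gave calls toward the tip alone, with 5 of 8 tested members higher, none lower and a median of 0.38. These are mostly hydrophilic proteins that protect membranes and enzymes in cold or drying cells. COR47 (AT1G20440) had 1696, 1766 and 1772 against 1140, 1207 and 1185 (0.57 ± 0.071, adjusted p = 3.6e-08). COR15B (AT2G42530) had 466, 441 and 505 against 320, 321 and 317 (0.55 ± 0.12), and its close relative COR15A (AT2G42540) 614, 655 and 760 against 465, 531 and 438 (0.49 ± 0.11). All 3 were higher on each distal array. LEA4-5 (0.66) passed at signals under 6 in the distal blade. Its call was lost without any 1 of the 6 arrays (adjusted p of 0.057 to 0.14), and that of COR27 (0.27) without any 1 of 5, all but proximal replicate 1 (adjusted p of 0.051 to 0.20), so that 3 or 4 of the 5 calls remained. LTI30 (-0.20), OSM34 (-0.13) and RD2 (0.04) did not pass.

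Genes of the rapid response to wounding and touch were higher in 6 of 14 cases and lower in 1, with a median of 0.28. CML41 (AT3G50770), a calmodulin-like calcium sensor, had 55.8, 54.7 and 74.5 against 25.2, 22.9 and 28.3 (1.09 ± 0.16). PUB23 (AT2G35930), a ubiquitin ligase that dampens immune signalling, had 83.0, 89.0 and 69.4 against 42.3, 44.4 and 53.5 (0.71 ± 0.18). GRX480 (AT1G28480), a glutaredoxin of salicylate signalling, had 116, 99.6 and 132 against 75.2, 76.8 and 64.2 (0.64 ± 0.12). The distal arrays were above the proximal ones in all 3 genes. CML42 (AT4G20780) was the exception, at 224, 213 and 183 against 265, 259 and 267 (-0.35 ± 0.11), a call lost without distal replicate 3 or proximal replicate 1 or 3 (adjusted p of 0.061 to 0.15). CML37 (0.36) and STZ (0.20), 2 early stress genes, did not pass. 

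Hormone defence genes split. Of 8 tested members of the ethylene, jasmonate and salicylate list 3 were higher and 2 lower in the distal blade. The lower ones were PDF1.2 and PDF1.2b, and their relative PDF1.4 (AT1G19610) was higher, at 30.2, 31.7 and 17.5 against 10.9, 7.79 and 7.88 (1.10 ± 0.20). OPCL1 (AT1G20510), an enzyme of jasmonate synthesis, had 544, 501 and 576 against 423, 407 and 413 (0.38 ± 0.067). JMT (AT1G19640), which methylates jasmonate and stood outside the list, had 74.4, 85.8 and 83.1 against 49.0, 59.5 and 38.3 (0.68 ± 0.17), a call lost without proximal replicate 3 (adjusted p = 0.053). The 3 glutamate receptor-like channels that passed were all higher in the distal blade, among them GLR2.8 (AT2G29110) with 38.7, 35.1 and 37.7 against 16.9, 23.9 and 18.4 (0.75 ± 0.18). They came from 9 tested carriers of the mineral list, whose median was near 0. The call of GLR1.4 was lost without proximal replicate 1 (adjusted p = 0.087), and that of GLR2.7 under 1 alternative setting (adjusted p = 0.085).

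Among genes of chlorophyll and tetrapyrrole synthesis most calls were toward the base. Of 8 tested members 4 were lower and 1 higher in the distal blade, with a median of -0.29. CHLI2 (AT5G45930), a subunit of the magnesium chelatase that commits the pathway to chlorophyll, had 225, 228 and 207 against 318, 273 and 287 (-0.40 ± 0.096). GSA1 (AT5G63570), which makes the precursor aminolevulinate, had 475, 499 and 503 against 607, 628 and 672 (-0.36 ± 0.082). HEME2 (AT2G40490) and HEME1 (AT3G14930), both uroporphyrinogen decarboxylases, had -0.35 ± 0.080 and -0.34 ± 0.087. In each of these 4 genes the distal arrays lay below the proximal arrays. HEMA2 (AT1G09940), a glutamyl-tRNA reductase isoform, was higher at 71.3, 90.8 and 105 against 54.5, 58.6 and 76.5 (0.45 ± 0.14). The HEMA2 arrays overlapped, and its call was lost without distal replicate 2 or 3 or proximal replicate 1 or 2 (adjusted p of 0.053 to 0.14).

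Nuclear genes of the photosynthetic apparatus itself differed little. Of 19 tested members of the photosystem list none was higher and 2 were lower, with a median of -0.058. These were CRR28 (-1.04 ± 0.24), an RNA editing factor whose signal was at most 25.1 on any blade array, and LIL3:1 (AT4G17600), a light-harvesting-like protein, with 792, 819 and 919 against 950, 1004 and 1006 (-0.23 ± 0.069). CRR28 no longer passed without distal replicate 1 (-0.66, adjusted p = 0.055), and LIL3:1 without distal replicate 1 or 2 or proximal replicate 2 or 3 (adjusted p of 0.059 to 0.11). LHCB4.1, a minor antenna protein, had means of 5874 and 5898 in the distal and proximal blade (-0.01). None of the 6 Calvin cycle members passed, and RCA, the Rubisco activase used here as a mesophyll marker, had means of 4752 and 4928 (-0.05). Of the 69 plastid-encoded genes 63 had differences below 0 and the median was -0.18, but 2 passed, the ribosomal protein genes rpl22 (-0.34 ± 0.095) and rpl36 (-0.35 ± 0.12). After quantile normalization 61 were below 0 and none passed. Without distal replicate 3 rpl36, whose arrays overlapped, had -0.10 (adjusted p = 0.65) and rpl22 -0.30 (adjusted p = 0.051), and rpl36 also failed without any proximal array. Transcripts of one plastid genome share their source and are not independent.

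Calls among cell division and DNA replication genes were all lower in the distal blade, with list medians of -0.15 and -0.19. Of 8 tested cell division genes only AUR1 (AT4G32830), an Aurora kinase of mitosis, passed, with 25.7, 29.0 and 28.4 in the distal against 45.0, 49.1 and 34.2 in the proximal blade (-0.52 ± 0.12). Its petiole mean was 80.9, and 5 of the other 7 members also had differences below 0, from -0.47 to -0.02. Of 9 DNA replication and histone genes 2 passed, both lower in the distal blade, namely POLA3 (AT5G41880), a primase subunit (-0.53 ± 0.16), and the histone HTB2 (AT5G22880), with 101, 101 and 113 against 137, 135 and 136 (-0.36 ± 0.099). POLA3 no longer passed without replicate 1 of either blade piece (adjusted p of 0.064 and 0.12). Several of these genes were dim in both blade pieces, such as BUBR1 at means of 3.40 and 4.28.

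Among regulators of leaf growth and shape 3 of 11 passed. TCP15 (AT1G69690), a TCP factor that curbs growth, had 40.8, 46.9 and 37.4 against 62.5, 48.4 and 60.4 (-0.40 ± 0.10). YAB3 (AT4G00180), which marks the lower side of the leaf, had 83.0, 84.4 and 81.3 against 109, 118 and 86.5 (-0.30 ± 0.10). NGA1 (AT2G46870), a B3 factor active at the leaf margin and tip, was higher in the distal blade, with 28.1, 25.3 and 20.7 against 14.8, 11.7 and 15.5 (0.61 ± 0.16), and near 0 in the petiole, at 1.73. NGA1 was also higher in young than in old leaves (0.49 in the fit over leaves 2 to 12), so its order along the blade was not that of leaf age. Its relative NGA2 had means of 39.2 and 27.2 (0.43) and did not pass, with an adjusted p of 0.050008. The calls of TCP15, YAB3 and NGA1 were lost in fits on the 9 arrays of leaf 7 alone, and that of YAB3 also without any 1 of the arrays but proximal replicate 3 (adjusted p of 0.060 to 0.22).

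Calls among wall-loosening genes went both ways, with 2 of 21 higher and 3 lower in the distal blade. The list median was -0.19, and 13 of the 21 had differences below 0. XTH32 (AT2G36870), a xyloglucan enzyme, had 80.9, 92.3 and 85.7 against 141, 144 and 147 (-0.70 ± 0.11), and 445 in the petiole. EXPB3 (AT4G28250), a beta-expansin, had 23.1, 18.3 and 25.8 against 36.5, 35.3 and 41.8 (-0.63 ± 0.11). EXO (AT4G08950), which promotes cell expansion in leaves, was higher in the distal blade, with 2316, 2248 and 2439 against 1848, 1823 and 1735 (0.37 ± 0.071), and so was the expansin-like EXLA1 (AT3G45970), with 1711, 1579 and 2007 against 1444, 1303 and 1413 (0.34 ± 0.084). The call of EXLA1 was lost without distal replicate 3 (adjusted p = 0.058). EXO and EXLA1 were higher in the later than in the 1 cm leaf 4 (2.72 and 4.99) and much lower in senescing leaves (-6.31 and -5.27). Auxin genes gave 2 higher and 1 lower of 9, with the conjugating enzyme WES1 (AT4G27260) at 39.0, 49.2 and 40.2 against 30.6, 28.1 and 31.3 (0.43 ± 0.12), a call lost without distal replicate 2 (0.34, adjusted p = 0.082). That of the lower one, GH3.17, was lost without any 1 array but proximal replicate 1 (adjusted p of 0.077 to 0.23). None of the 6 gibberellin and brassinosteroid genes passed.

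SWEET sugar carriers were divided between tip and base. SWEET11 (AT3G48740), which releases sucrose from phloem parenchyma cells for export, had 1587, 1549 and 1731 in the distal against 1028, 1110 and 1148 in the proximal blade (0.56 ± 0.062, adjusted p = 1.4e-09), and 213 in the petiole. The distal arrays were all above the proximal ones, which in turn were far above the petiole. SWEET16 (AT3G16690), a carrier of the vacuole membrane, was also higher (0.51 ± 0.13). SWEET17 (AT4G15920), a fructose carrier of the same membrane, had 250, 247 and 260 against 312, 295 and 306 (-0.26 ± 0.091) and 559 in the petiole, and SWEET1 (AT1G21460) was lower too (-0.29 ± 0.10). The call of SWEET17 was lost without any 1 array (adjusted p of 0.054 to 0.11), that of SWEET1 without distal replicate 1 or 3 or proximal replicate 2 or 3 (0.053 to 0.29), and that of SWEET16 without proximal replicate 3 or distal replicate 2 (0.054 and 0.072). In the list of starch and sucrose metabolism, the gene annotated as PWD (AT4G24450), of the glucan water dikinases, had 65.0, 60.4 and 79.4 against 42.1, 40.4 and 36.3 (0.70 ± 0.16).

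**Figure D5:**
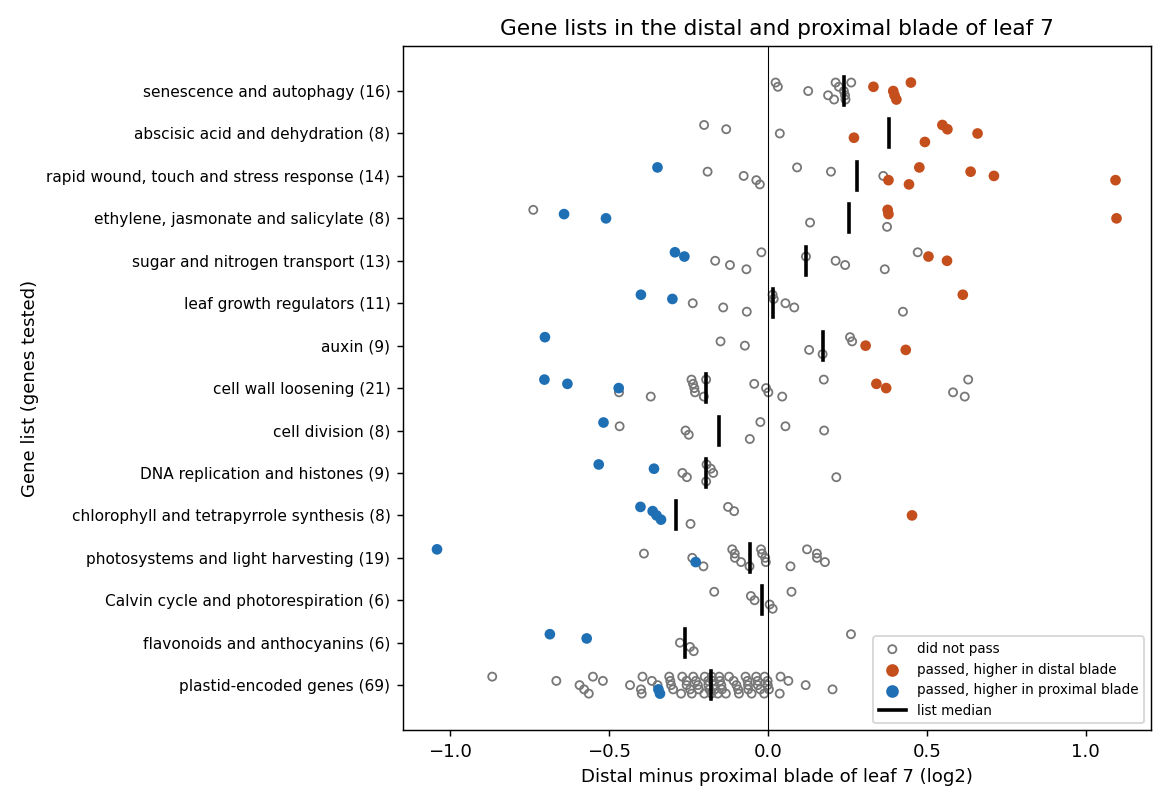
Distal minus proximal log2 difference (horizontal axis) of each tested member of 15 gene lists, filled where it passed and open where it did not, with a bar at the list median. All 16 senescence and autophagy genes lie above 0, while the medians of tetrapyrrole synthesis (-0.29) and flavonoids (-0.26) lie below 0.

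Flavonoid and redox genes added a few members. CHIL (AT5G05270), a helper protein of flavonoid synthesis, and UGT78D1 (AT1G30530), which attaches rhamnose to flavonols, were lower in the distal blade (-0.69 ± 0.23 and -0.57 ± 0.099), 2 of 6 tested. UGT78D1 had 45.2, 44.7 and 49.0 against 67.3, 74.2 and 73.6. CHIL no longer passed without distal replicate 1 or proximal replicate 2 or 3 (adjusted p of 0.054 to 0.24). In the redox list 5 of 24 were higher and 2 lower, the latter GSTU20 (AT1G78370), a glutathione transferase, at 1158, 1095 and 1261 against 1918, 1772 and 1915 (-0.67 ± 0.095), and NTRC, a chloroplast thioredoxin reductase (-0.27 ± 0.061). Of the 5 higher ones, GSTU16 and MSRB5 lost their calls without distal replicate 3, or proximal replicate 2 or 3, which left 3.

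Markers of single cell types gave few values. The guard cell marker GC1 (AT1G22690) had 457, 417 and 439 in the distal against 595, 583 and 555 in the proximal blade (-0.40 ± 0.097), 1 of 3 tested members. The stomatal factors SPCH (means of 1.39 and 4.38) and FMA (52.8 and 62.9) did not pass, and SPCH was near the bottom of the scale in both. STOMAGEN (AT4G12970), a mesophyll peptide that promotes stomata, stood outside the list and had 76.1, 84.2 and 78.1 against 115, 138 and 109 (-0.56 ± 0.11). None of 4 trichome markers passed, nor did the epidermis marker FDH (means of 696 and 591). SWEET11 was the one phloem marker tested, no xylem marker was named on the array, and the part of cell type shares in these results was not tested.

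Grouping the tested genes by symbol, after their values had been seen, gave several families with more than 1 call. Of all 1219 genes with a symbol other than a locus code, 114 passed higher and 105 lower in the distal blade. Families not detailed here include the UGT genes, with 5 higher and 1 lower of 28, and the TBL genes, with 2 higher and 2 lower of 16. Of 15 serine carboxypeptidase-like genes 5 were lower and none higher in the distal blade, with scpl35 (AT5G08260) at 160, 154 and 136 against 257, 254 and 240 (-0.72), but 2 of the 5 calls remained without proximal replicate 2. Of 8 GH9 cellulases 3 were lower, including GH9B8 (AT2G32990) at 18.8, 24.5 and 22.6 against 50.8, 40.4 and 52.2 (-0.94), and the call of GH9A4 was lost without any 1 of 5 arrays (adjusted p of 0.055 to 0.13). Of 8 plant U-box ubiquitin ligases 4 were higher and none lower, and of 9 VPS genes, of vesicle sorting, 5 were higher and 1 lower. Without distal replicate 3 the 4 U-box calls fell to 1, as PUB19, PUB25 and PUB43 were lost, and the 5 higher VPS calls to 2, as VPS2.1, VPS22 and VPS60.1 were lost. The lower VPS call, VPS2.2, was lost without proximal replicate 3 (adjusted p = 0.0504). VPS20.1 (AT5G63880) had 97.9, 94.1 and 94.9 against 71.4, 68.4 and 71.4 (0.41). Of 6 RALFL signalling peptides 1 was higher (RALFL22) and 2 lower, among the latter RALFL34 (AT5G67070) with 356, 362 and 320 against 528, 496 and 502 (-0.55). Without proximal replicate 2 the calls of RALFL22 and RALFL32 were lost. Of 8 NET proteins and 6 LSM proteins none passed.

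Sample quality measures overlapped between the blade pieces. The GAPDH control's 3'-to-5' ratio was 1.77 to 2.14 on distal and 1.55 to 2.01 on proximal arrays. The same ratio was higher in the other controls, at 5.54 to 10.3 and 6.13 to 11.6 for actin, and 2.63 to 3.27 and 3.0 to 3.12 for ubiquitin. The median signal was 32.6 to 33.9 and 32.4 to 33.3, and the share of signal in the 100 brightest probe sets 12.5 to 13.9% and 12.8 to 13.9%.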

How the data were processed

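RNA of 60 leaf samples was measured on single-colour arrays with 22810 probe sets. The deposited values are 1 signal intensity per probe set, made with MAS5 per the submitters' processing notes. No source used here gives its version. Signals were log2-transformed after adding 6.11, the median across arrays of each one's 20th percentile. The 64 controls were dropped, and a probe set was tested if some group had it above the 40th percentile of its own array on all 3 arrays, with limma 3.58.1 in R 4.3.3, with 1 mean for each of 20 groups (40 residual degrees of freedom) and an intensity trend in the empirical Bayes step. The number of arrays limits the precision. Names came from the array annotation, which gave 1 gene for 13513 probe sets, several for 503 and none for the rest, and 13436 matched RefSeq (TAIR10.1) by gene ID. Named genes were the 12 largest increases and decreases that passed, did not overlap and were above the 60th percentile in the brighter group, and up to 4 passing members of each list. Further genes (JMT, STOMAGEN, those of the symbol families and members that did not pass) were chosen after their values were seen.

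The comparison and the gene lists were chosen with earlier results of these data known. Lists were also trimmed of mismatched symbols after values had been seen, and plastid genes were taken by chromosome, since no locus code of the planned kind matched. The first array of rosette leaf 6 has a tissue label of leaf 4, and an alternative moved it. Same-lettered arrays of the blade pieces were not paired in the main fit. The r of their deviations was 0.013 to 0.056, against -0.052 to 0.012 for arrays of different letters. Whether the letter marks a pairing was not tested further. On simulated data with 15808 probe sets for this comparison, 52 of 100 log2 differences of 0.5 and 90 of 100 of 1 were recovered, with 9 false calls. A planned description of promoter motifs was not run because no sequences were used here. Plots used matplotlib 3.10.9 (Python 3.11.15).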

Additional observations from a re-analysis of the deposited data

How the results depend on the processing

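None of the 164 named genes and probe sets changed sign under any alternative, nor did any list median given above as a number, but the medians of 9 of the 30 lists examined did, the mineral list among them. The share of calls higher in the distal blade was 51.6%, and became 46.4% after quantile normalization and 49.6% and 49.9% without distal replicate 2 or 3. The count of 2-fold differences depended on the pseudocount. With a pseudocount of 1 it was 119 higher and 91 lower in the distal blade, and with one 4 times larger 13 and 11, since a larger pseudocount shrinks the differences of dim genes. The leaf positions became 6.19 and 7.10 when probe sets that passed between the blade pieces were left out, a choice made after seeing the data, which by construction brings the pieces closer. Other filters, quantile normalization, array weights and fits on fewer arrays gave 989 to 1385 probe sets higher and 925 to 1281 lower. Leaving out each array in turn gave 1029 to 1081 higher and 985 to 1064 lower, and 64 to 76 and 36 to 52 at 2-fold. A replicate block by array letter gave 1116 and 943, with 64 and 36 at 2-fold. The labels used here tie same-lettered arrays by the letter alone, so what this block stands for is unknown. The fit is therefore no measure of a weaker effect. All 24 genes with the largest changes passed under every alternative, as did 91 of the 164 named genes and probe sets of all tables. Calls lost under at least 1 other setting include ATG8G, EXPA9, GH3.17, LEA4-5, COR27, HEMA2, NGA1, TCP15, YAB3, WES1, SWEET1, SWEET16, SWEET17, CHIL, rpl22 and rpl36, and the cause was not tested. Moving the leaf 6 array with a leaf 4 tissue label or using other partner groups changed no count of the leaf age comparisons by over 1.5 times. The largest shift was in senescing leaves. Against leaf 2 alone, 617 probe sets of the distal list were higher there and 510 lower, where the main comparison had 869 and 373. At a log2 difference of 0.5 the simulation recovered 52 of 100, so differences of that size can be missed.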

Other observations

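Of the 100 probe sets with a 2-fold difference 51 had no single gene in the annotation. The 2 largest differences in each direction among unnamed probe sets that passed without overlap are given here. Probe set 258589_at had 15.9, 11.8 and 26.1 in the distal against 115, 121 and 114 in the proximal blade (-2.40 ± 0.16), with 352 in the petiole. Probe set 263498_at had 23.4, 31.0 and 31.8 against 121, 119 and 98.7 (-1.78 ± 0.16), and 879 in the petiole. It went against leaf age, at -0.37 ± 0.14 in the fit over leaves 2 to 12 and 2.20 ± 0.16 in leaf 4. Both probe sets were lowest at the tip on every array and highest in the petiole. In the other direction 253161_at had 663, 668 and 745 against 189, 180 and 179 (1.88 ± 0.096), but 541 in the petiole, and 252415_at had 201, 200 and 181 against 66.2, 54.0 and 67.2 (1.55 ± 0.10), with 189 in the petiole. In the latter pair the proximal blade was the lowest of the 3 parts of leaf 7.

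The chloroplast chaperonin subunits beyond Cpn60beta2 that passed were also lower in the distal blade, Cpn60beta3 (AT5G56500) with 32.5, 26.8 and 40.2 against 55.9, 43.0 and 51.9 (-0.53 ± 0.13) and Cpn60beta4 (AT1G26230) with 130, 154 and 140 against 165, 169 and 179 (-0.27 ± 0.072), the latter call being lost without distal replicate 1 (adjusted p = 0.067). SBTI1.1 (AT1G01900), a subtilase, had 13.3, 8.02 and 17.4 against 40.5, 44.6 and 29.8 (-1.24 ± 0.19) and a petiole mean of 93.2. The linker histone HIS1-3 (AT2G18050), induced by drought, had 31.3, 29.7 and 33.5 against 13.9, 12.9 and 18.2 (0.84 ± 0.14). These genes were picked after their values had been seen.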
